A study of Homo sapiens with 10 samples.

Results

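The genes described here are 8 matrix metalloproteases (MMP1, MMP2, MMP3, MMP7, MMP9, MMP10, MMP13 and MMP14) and 2 of their inhibitors (TIMP1 and TIMP2), measured by mRNA sequencing of MCF10A cells. They were chosen by gene symbol, as 10 of the 60168 genes in the deposited transcript estimates, by a rule that uses no measured value, although earlier results of these data were known when the list was drawn up. All 10 were found in every library. Of these, 5 (MMP2, MMP7, MMP14, TIMP1 and TIMP2) had enough reads to be tested, and the other 5 (MMP1, MMP3, MMP9, MMP10 and MMP13) had between 0 and 7 reads in any sample.

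Matrix metalloproteases are zinc-dependent enzymes that cut proteins of the extracellular matrix and of the cell surface. Most are secreted as inactive proenzymes that other proteases activate by removing the prodomain, whereas MMP14 is anchored in the cell membrane. TIMPs are small secreted proteins that block the active site of these enzymes, and TIMP2 has a further role, since together with MMP14 it forms the complex on which pro-MMP2 is activated at the cell surface. Epithelial cells of the breast use these enzymes when they remodel the basement membrane, and YAP, the transcriptional coactivator at the end of the Hippo pathway, acts with TEAD factors, often beside AP-1, at the enhancers of genes of matrix and migration.

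MCF10A is a non-tumorigenic human mammary epithelial cell line. The cells had been transduced with a vector for activated YAP, with a vector for TRAM2, or with an empty vector, selected with antibiotic, and harvested before full confluence. The first group is labelled MCF10A-YAP and is called MCF10A-YAP5SA here, after the study's name for a YAP whose inhibitory serines are replaced. The second, MCF10A-TRAM2, overexpresses TRAM2, a component of the translocon of the endoplasmic reticulum, and the third is the control. All groups were grown in the same medium with horse serum, EGF, insulin and hydrocortisone. Per the study's methods, YAP5SA and TRAM2 were cloned into different lentiviral backbones (with blasticidin and puromycin resistance), and the sources used here do not give the backbone of the empty vector, so that the effects of the insert and of the backbone cannot be told apart. The labels name 2 MCF10A-YAP5SA, 4 MCF10A-TRAM2 and 4 control libraries, while the submitters' design text speaks of 3 biological replicates for each condition. By the run numbers in the names of the deposited data, A and B of each group were sequenced first and C and D in a second run, and MCF10A-YAP5SA has no library of the second.

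For control A and C a chi-square test of the counts found no difference beyond sampling noise, with 1.02 for each degree of freedom and p = 0.244 over 3805 genes. For control B and D the chi-square test gave 1.04 and p = 0.0408 over 3886 genes, and p = 0.222 over the 1835 genes with whole counts in all 10 libraries, while the other control pairs lay at 1.14 to 1.21. The libraries of each pair were added up and treated as a single sample (control 1 and control 2), which gives n = 2 for MCF10A-YAP5SA, 4 for MCF10A-TRAM2 and 2 for control. By the same chi-square test, pairs of MCF10A-TRAM2 libraries lay at 1.89 to 6.28 and MCF10A-YAP5SA A and B at 1.21. The groups thus differed in spread, while the fit shares its estimate of spread between them. The samples held 12477031 to 21542413 estimated counts. Nothing in the labels says that the samples came from separate cultures, so that p-values measure only the spread between these samples, which may be technical. The introduced genes matched the labels. YAP1 stood at 337 and 342 CPM (a gene's counts scaled to the normalized library size) in MCF10A-YAP5SA, at 181 to 196 CPM in MCF10A-TRAM2 and at 187 and 186 CPM in control. TRAM2 stood at 249 to 610 CPM in MCF10A-TRAM2 and at 242 and 247 CPM in MCF10A-YAP5SA, against 28.3 and 28.8 CPM in control. Of 15768 genes tested, edgeR called 4633 in MCF10A-YAP5SA against control and 9 in MCF10A-TRAM2 against control. A call required an absolute log2 fold change over 0.5 together with an adjusted p under 0.05. The libraries had epithelial transcripts throughout. The 12 epithelial markers summed to 5068 to 5178 CPM in MCF10A-YAP5SA, to 5126 to 5722 CPM in MCF10A-TRAM2 and to 5372 to 5511 CPM in control.

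The first question was which of the protease and inhibitor genes differ in cells with activated YAP. In MCF10A-YAP5SA against control, TIMP2 was 2.79-fold higher, MMP2 was 32.4-fold lower and MMP7, present in control, had no read at all. MMP14 and TIMP1, the most abundant protease and inhibitor per length, were not called. The called members were thus 3 of the 5 tested, 1 higher and 2 lower, where 29.4% of all tested genes were called (15.3% higher and 14.1% lower). The values of MCF10A-YAP5SA and control did not overlap for 4 of the 5, which was the case for 76.7% of all genes, and 3 of the 5 had an unadjusted p under 0.05, as had 53.9% of all genes. The median log2 fold change of the 5 was -0.04, beside a median of -0.009 and a median absolute value of 0.353 over all genes. In bulk RNA, fewer cells that express a gene and less RNA per cell cannot be told apart.

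**Figure D1:**
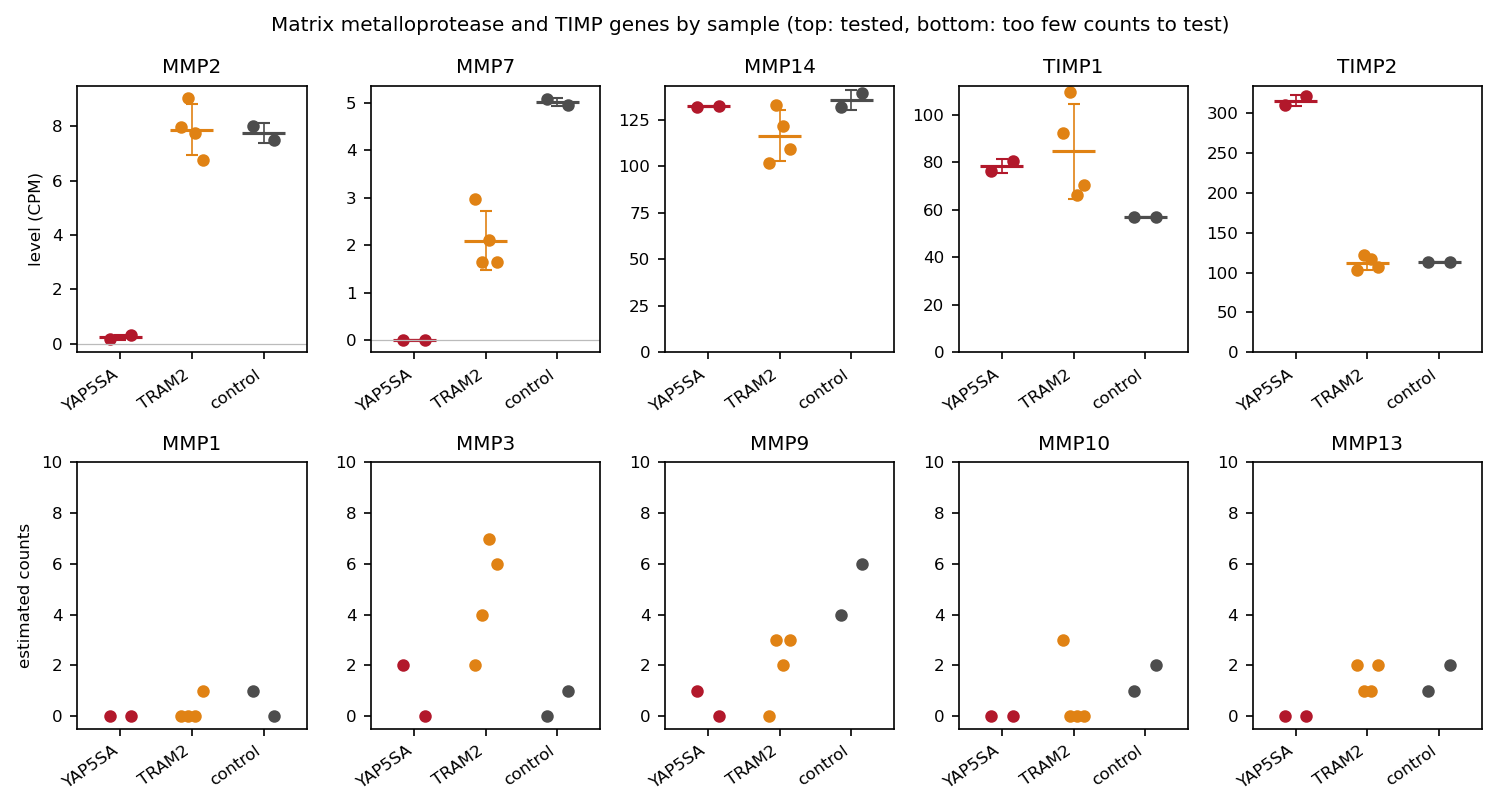
Level in CPM of the 5 tested members (top) and estimated counts of the other 5 (bottom), each point a sample, with MCF10A-YAP5SA (n = 2), MCF10A-TRAM2 (n = 4) and control (n = 2) from left to right. In the top row, horizontal lines are means and bars are SD. TIMP2 is high in both MCF10A-YAP5SA samples (311 and 321 CPM), MMP2 is low there (0.168 and 0.309 CPM), MMP7 has no count in either, and no gene of the bottom row exceeds 7 counts.

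TIMP2 (ENSG00000035862.12, chromosome 17 of GRCh37 from 76849059 to 76921469, minus strand) is the inhibitor that also takes part in the activation of pro-MMP2. It stood at 311 and 321 CPM in MCF10A-YAP5SA A and B, at 103, 122, 117 and 107 CPM in MCF10A-TRAM2 A to D, and at 113 and 114 CPM in control 1 and 2. Both MCF10A-YAP5SA samples thus lay far above all the others, and the control values fell inside the range of MCF10A-TRAM2. The means were 316 ± 7.2 CPM (SD, n = 2) in MCF10A-YAP5SA and 113 ± 0.27 CPM (SD, n = 2) in control. The log2 fold change was 1.48 (standard error 0.07, 95% interval 1.33 to 1.63, edgeR's quasi-likelihood test with Benjamini-Hochberg adjusted p = 3.85e-10). It ranged from 1.43 to 1.51 over the 16 other ways in which it was computed. With only the first-run libraries it was 1.51. Nearly all TIMP2 counts belonged to the transcript TIMP2-201 (3652 bases), with shares of 99.6% in MCF10A-YAP5SA, 99.3% for MCF10A-TRAM2 and 99.5% in control. CEP295NL, which overlaps TIMP2 on the same strand, had 27.8, 21.9 and 16.5 counts in the same order of groups.

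MMP2 (ENSG00000087245.13, chromosome 16 from 55423612 to 55540603, plus strand) encodes gelatinase A, which degrades type IV collagen of basement membranes. It stood at 0.168 and 0.309 CPM in MCF10A-YAP5SA A and B, at 7.96, 9.03, 7.74 and 6.74 CPM in MCF10A-TRAM2 A to D, and at 7.996 and 7.48 CPM in control 1 and 2. The MCF10A-YAP5SA values rest on 2 and 4 counts, against 175 and 139 counts in control, and the ratio of the summed counts was 0.0311 (95% counting interval 0.0113 to 0.0685). Intervals and floors on counts cover counting error only. The log2 fold change was -4.96 (standard error 0.32, 95% interval -5.64 to -4.28, edgeR adjusted p = 1.03e-08) and ranged from -5.46 to -4.60 over the 16 alternatives. The mean in MCF10A-TRAM2, 7.87 ± 0.94 CPM (SD, n = 4), lay within the spread of that in control, 7.74 ± 0.37 CPM (SD, n = 2). In control, 76.5% of MMP2 counts were assigned to MMP2-201 (3514 bases), with 75.7% to 78.2% in the separate libraries. In MCF10A-TRAM2 the share was 71.8%, but it ran from 47.9% to 96.2% between libraries, so that the split of this gene over its transcripts was less even there than its total.

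MMP7 (ENSG00000137673.9, chromosome 11 from 102391239 to 102401481, minus strand) encodes matrilysin, a small protease of glandular epithelia that lacks the hemopexin domain of most other family members. It had 0 and 0 counts in MCF10A-YAP5SA A and B, 40, 24, 35 and 26 counts in MCF10A-TRAM2 A to D, and 111 and 92 counts in control 1 and 2. In CPM this was 0 in MCF10A-YAP5SA, 2.97, 1.65, 2.12 and 1.64 in MCF10A-TRAM2 and 5.07 and 4.95 in control. The 3 groups were fully separated, with MCF10A-TRAM2 between the other two. With 3 counts over the whole group taken as the floor, MMP7 was at least 41.5-fold lower in MCF10A-YAP5SA than in control (edgeR adjusted p = 3.8e-07). The bound was 21.6-fold without MCF10A-YAP5SA A and 19.9-fold without MCF10A-YAP5SA B, where the floor rests on 1 library, and 41.0-fold and 42.0-fold without control 1 and control 2. All counts of the gene were assigned to MMP7-201 (1119 bases).

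The promoter of MMP7 is shown because this gene had the widest separation of the groups and its promoter held the AP-1 motif. Promoter sequences (250 bases before to 50 after the start) were available from RefSeq for 4 of the 10 members (MMP7, MMP10, MMP14 and TIMP1) on build GRCh38.p14. The MMP7 window is chr11:102530698-102530997, minus strand, and capitals mark the AP-1 motif TGAGTCA.
MMP7 promoter: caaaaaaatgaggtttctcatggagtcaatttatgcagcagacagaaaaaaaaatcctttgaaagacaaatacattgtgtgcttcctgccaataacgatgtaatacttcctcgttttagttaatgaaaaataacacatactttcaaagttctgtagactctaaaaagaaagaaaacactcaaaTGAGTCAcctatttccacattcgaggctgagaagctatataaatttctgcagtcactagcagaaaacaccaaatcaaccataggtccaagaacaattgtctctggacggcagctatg
The motif begins 67 bases before the start. Searched on both strands, it occurs in 4.92% of the 27305 promoters of the same length, and among the 4 members only in MMP7. Only this exact string was searched, so that variants of it, such as TGAGTAA in the TIMP1 window, were not counted. The ETS motif AGGAAG, also searched on both strands, lies in the same window on the opposite strand at 169 and 145 bases before the start. It was found in 33.7% of promoters, among the members also in TIMP1 at 87 bases before the start. The TATA motif TATAAA, searched on the gene's own strand, lies at 30 bases before the start of MMP7 and was found in 7.71% of promoters, among the members also in MMP10 at 31 bases before the start. The TEAD motif GGAATG, searched on both strands, was in none of the 4 windows and in 14.05% of all promoters. The motifs did not overlap each other in these windows. The matches describe letters only, and no binding was measured here.

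MMP14 (ENSG00000157227.13, chromosome 14 from 23305769 to 23318250, plus strand) encodes the membrane-anchored protease MT1-MMP, which cleaves fibrillar collagen and activates pro-MMP2. It stood at 132 and 132 CPM in MCF10A-YAP5SA A and B, at 102, 133, 122 and 109.5 CPM in MCF10A-TRAM2 A to D, and at 132 and 139.7 CPM in control 1 and 2. The ranges of the groups all overlapped. In MCF10A-YAP5SA against control the log2 fold change was -0.04 with a 95% interval of -0.28 to 0.20 (edgeR adjusted p = 0.794), an interval that excludes the called fold in either direction.

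TIMP1 (ENSG00000102265.12, chromosome X from 47441807 to 47446188, plus strand) encodes a secreted inhibitor of most soluble family members that also binds pro-MMP9. It stood at 76.1 and 80.4 CPM in MCF10A-YAP5SA A and B, at 92.2, 109, 66.2 and 70.2 CPM in MCF10A-TRAM2 A to D, and at 56.9 and 56.7 CPM in control 1 and 2. Every MCF10A-YAP5SA and MCF10A-TRAM2 sample thus lay above both control samples, and the 4 MCF10A-TRAM2 samples spread widest. For MCF10A-YAP5SA against control the log2 fold change was 0.46 (95% interval -0.18 to 1.11, edgeR adjusted p = 0.206). The fit behind this interval takes its estimate of spread also from the MCF10A-TRAM2 samples. With only the 2 compared groups in the fit, the log2 fold change was 0.46 (standard error 0.05, edgeR adjusted p = 6.09e-09). With the first-run libraries alone it was 0.49 (edgeR adjusted p = 0.000776). Both lay below the fold needed for a call. The adjusted p ran up to 0.462 over the 16 alternatives, and the gene kept its side of the threshold in each.

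The remaining 5 proteases were close to absent from every group. MMP9, gelatinase B, had 1 and 0 counts in MCF10A-YAP5SA, 0, 3, 2 and 3 in MCF10A-TRAM2 and 4 and 6 in control, and the ratio of MCF10A-YAP5SA to control was 0.163 with a counting interval of 0.00375 to 1.15. MMP3, stromelysin 1, had 2 and 0 counts in MCF10A-YAP5SA, 2, 4, 7 and 6 in MCF10A-TRAM2 and 0 and 1 in control. MMP1, the interstitial collagenase, had 1 count in MCF10A-TRAM2 and 1 in control in all. MMP10, stromelysin 2, had 3 counts in MCF10A-TRAM2, all in library A, and 3 in control, and MMP13, collagenase 3, had 6 and 3, with no count of any of these 3 genes in MCF10A-YAP5SA. A group total of 0 in MCF10A-YAP5SA allows up to 0.121 CPM, so that a difference in these 3 genes was not detectable at this depth. WTAPP1, a pseudogene on the opposite strand that overlaps MMP1, MMP3 and MMP10, had 1, 2 and 0 counts in MCF10A-YAP5SA, MCF10A-TRAM2 and control.

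The second question was whether raised TRAM2 alone changes these genes. In MCF10A-TRAM2 against control none of the 5 tested members was called by edgeR's quasi-likelihood test, as against 0.0571% of all genes (0.0317% higher and 0.0254% lower), and MMP7 came nearest, at 2.10 ± 0.63 CPM (SD, n = 4) in MCF10A-TRAM2 and 5.01 ± 0.087 CPM (SD, n = 2) in control. An unadjusted p under 0.05 was reached by 3 of the 5 (MMP7, MMP14 and TIMP1), where 12.6% of all genes reached it. The values of the groups did not overlap for 2 of the 5 (MMP7 and TIMP1), where 22.7% of all genes did not. The median log2 fold change of the 5 was -0.01, beside -0.0008 over all genes. TRAM2 itself, with a log2 fold change of 3.90 and an edgeR adjusted p of 0.0725, was not called either. Both comparisons with control share the same 2 control samples.

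For MMP7 the log2 fold change in MCF10A-TRAM2 against control was -1.26 (standard error 0.24, 95% interval -1.78 to -0.75, edgeR adjusted p = 0.0628). All 4 MCF10A-TRAM2 samples lay below both control samples. The call depended on the fit. The adjusted p ran from 1.98e-05 to 0.64 over the alternatives, with the gene called lower in 6 of 17, and the log2 fold change stayed between -1.47 and -1.11. It was -1.11 (adjusted p = 0.246) in the first run and -1.41 (adjusted p = 0.0111) in the second, and it was called without MCF10A-TRAM2 A (adjusted p = 0.0175) or without MCF10A-TRAM2 B (adjusted p = 0.0301).

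TIMP1 averaged 84.5 ± 20 CPM (SD, n = 4) in MCF10A-TRAM2 and 56.8 ± 0.13 CPM (SD, n = 2) in control, a log2 fold change of 0.57 (95% interval 0.01 to 1.12, edgeR adjusted p = 0.388). Its difference moved with the sequencing run. It was 0.86 (adjusted p = 0.00242) in the first run, with MCF10A-TRAM2 A and B at 92.2 and 109 CPM, and 0.23 (adjusted p = 0.0452) in the second, with C and D at 66.2 and 70.2 CPM, and only the first passed the threshold on the fold. The TRAM2 level was 390 and 610 CPM in the first-run libraries and 249 and 460 CPM in the second-run ones. The part of the run and of the TRAM2 level in this difference was not tested.

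MMP14 averaged 116 ± 14 CPM (SD, n = 4) in MCF10A-TRAM2 and 136 ± 5.3 CPM (SD, n = 2) in control, a log2 fold change of -0.22 (95% interval -0.42 to -0.02, edgeR adjusted p = 0.355). TIMP2 and MMP2 were at the control level, with log2 fold changes of -0.01 (adjusted p = 0.957) and 0.02 (95% interval -0.28 to 0.32, adjusted p = 0.974). Among the low genes, the counts of MMP3 added up to 19 in MCF10A-TRAM2 and 1 in control, a ratio of 12.7 with a counting interval of 2.03 to 529, and its counts in the 4 MCF10A-TRAM2 samples (2 to 7) did not overlap those in control (0 and 1). When no filter on low counts was applied, its log2 fold change was 3.26 with an edgeR adjusted p of 0.177.

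**Figure D2:**
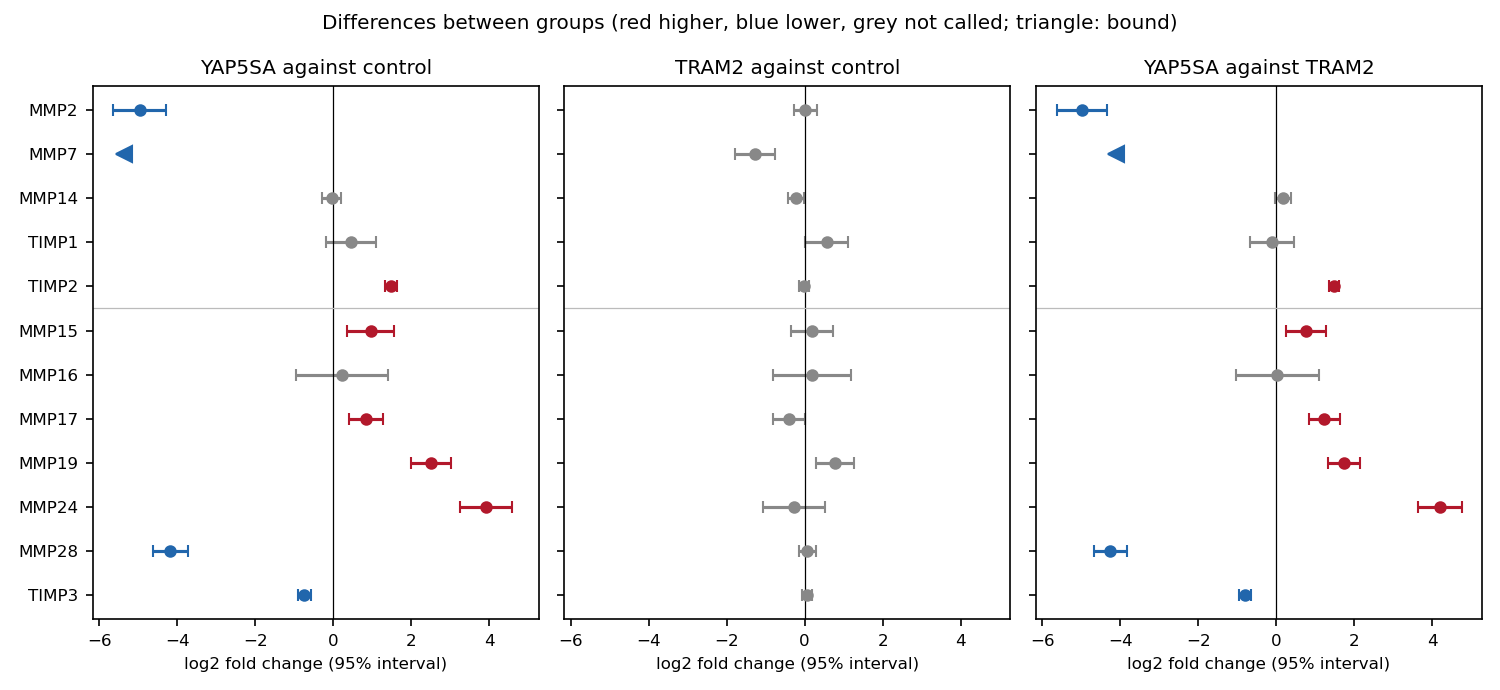
Log2 fold change (points) with its 95% interval (bars) for the 5 tested members, above the line, and 7 other tested family members, in each of the 3 comparisons, coloured red where called higher, blue where called lower and grey where not called. The triangles of MMP7 stand for the bounds of 41.5-fold and 17.1-fold. TIMP2 lies at 1.48 and MMP2 at -4.96 in MCF10A-YAP5SA against control, while in MCF10A-TRAM2 against control no gene shown was called.

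Since MCF10A-YAP5SA cells also had raised TRAM2, MCF10A-YAP5SA and MCF10A-TRAM2 were compared directly. The same 3 members were called as against control, 1 higher and 2 lower of the 5 tested, with 29.4% of all genes called (14.9% higher and 14.6% lower). TIMP2 was 2.82-fold higher in MCF10A-YAP5SA than in MCF10A-TRAM2 (log2 fold change 1.49, standard error 0.06, edgeR adjusted p = 3.76e-11). For MMP2 the value was -4.98 (standard error 0.30, adjusted p = 4.47e-09), and MMP7 was at least 17.1-fold lower (adjusted p = 4.86e-06), a bound that leaving out 1 sample moved between 8.22 and 18.4, with its lowest values of 8.93 and 8.22 without MCF10A-YAP5SA A and B. MMP14 differed by 0.18 (95% interval -0.03 to 0.39, adjusted p = 0.131) and TIMP1 by -0.11 (adjusted p = 0.736), on the log2 scale. The groups did not overlap for 3 of the 5, where 61.9% of all genes did not, and 3 of the 5 had an unadjusted p under 0.05, as had 56.2% of all genes.

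The levels of the members were compared with each other only per length, mainly by the TPM of each gene's main protein-coding transcript. On this scale the order of the means was TIMP1, TIMP2, MMP14, MMP7 and MMP2 in MCF10A-TRAM2 and in control. In MCF10A-YAP5SA, TIMP1-201 was at 44.7 ± 2.4 TPM and TIMP2-201 at 40.4 ± 1.2 TPM (SD, n = 2). By main transcripts they were thus neighbours whose difference was small beside the gap in the other groups. In MCF10A-TRAM2 they were at 53.1 ± 16 and 14.7 ± 1.0 TPM (SD, n = 4), and in control at 33.5 ± 0.74 and 14.8 ± 0.21 TPM (SD, n = 2). MMP14-201 stood at 9.93 ± 0.18 TPM in MCF10A-YAP5SA, at 8.43 ± 0.92 TPM in MCF10A-TRAM2 and at 10.5 ± 0.40 TPM in control. MMP7-201 was listed at 0 in MCF10A-YAP5SA, at 1.08 ± 0.33 TPM in MCF10A-TRAM2 and at 2.57 ± 0.10 TPM in control. MMP2-201 was at 0 and 0.0127 TPM in MCF10A-YAP5SA, at 0.762 ± 0.17 TPM in MCF10A-TRAM2 and at 0.810 ± 0.036 TPM in control. By main transcripts, MMP7 and MMP2 were thus apart in control, but their ranges met in MCF10A-TRAM2 (0.849 to 1.55 and 0.528 to 0.895 TPM). The main transcripts of the other 5 proteases stayed at or below 0.0686 TPM in every sample. Over all transcripts of each gene the order of the means was different. In control, MMP14 (69.01 TPM) lay above TIMP2 (14.89 TPM), and MMP2 (3.007 TPM) above MMP7 (2.565 TPM). The means in MCF10A-TRAM2 had the same order as in control. In MCF10A-YAP5SA, TIMP1 (138.3 TPM) and TIMP2 (40.67 TPM) were far apart on that scale, with MMP14 (61.68 TPM) between them.

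Summed over main transcripts, the 2 inhibitors had 8.15 and 8.95 times the TPM of the 8 proteases in MCF10A-YAP5SA A and B, 6.71, 7.93, 4.97 and 6.41 times in MCF10A-TRAM2 A to D, and 3.50 and 3.44 times in control 1 and 2. Summed over all transcripts, the ratios were 3.09 and 2.73, 3.20, 2.46, 2.08 and 1.90, and 1.66 and 1.36, in the same order. The ratio was higher in every MCF10A-YAP5SA and MCF10A-TRAM2 sample than in both control samples on both scales, while MCF10A-YAP5SA and MCF10A-TRAM2 were separate only on the first. The gene totals in TPM depend on short transcripts, since TIMP1-203 (341 bases) held 58.0% to 65.8% of the TPM of TIMP1 and a transcript of MMP14 with a retained intron (560 bases) held 36.0% to 68.4% of that gene's TPM. MMP14 made up most of the TPM of the 8 proteases on both scales. By main transcripts its share was at least 99.2% in MCF10A-YAP5SA, 79.3% to 84.9% in MCF10A-TRAM2 and 74.3% and 76.0% in control, and over all transcripts 99.7%, 90.5% to 95.2% and 91.9% to 92.8% in the same order. The ratios and shares leave out the other members of the 2 families. Over all transcripts, MMP19 averaged 8.79 ± 8.3 TPM (SD, n = 2) in MCF10A-YAP5SA and 0.478 ± 0.023 TPM (SD, n = 2) in control. In MCF10A-TRAM2 it averaged 7.78 ± 8.2 TPM (SD, n = 4), near the MCF10A-YAP5SA mean. Its samples ran from 2.91 to 14.7 TPM in MCF10A-YAP5SA and from 0.80 to 16.3 TPM in MCF10A-TRAM2. In CPM they lay closer, at 11.2 and 10.1 CPM and at 2.53 to 4.27 CPM. MMP28 averaged 0.313 TPM in MCF10A-YAP5SA and 5.95 TPM in control, and TIMP3 7.44 and 12.6 TPM. Ratios and shares over the whole families were not computed. The values concern RNA and no protein or enzyme activity was measured in these data.

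Of the 10 members, 5 (MMP7, MMP10, MMP1, MMP3 and MMP13) lie in a cluster of 9 protease genes on chromosome 11, from 102391239 to 102826461 on GRCh37, a stretch of 435 kb that begins 287 kb beyond the end of YAP1. The vector adds YAP5SA reads to those of the YAP1 gene, and the 2 sources cannot be told apart in gene sums. Apart from MMP7, each protease of the cluster was at 0 or at a few counts in all groups. Of 23 genes of this region in the data, 9 were tested, and in MCF10A-YAP5SA against control 3 were called higher and 3 lower, beside 15.3% and 14.1% of all genes, with a median log2 fold change of -0.31. The higher ones were YAP1 at 0.86 (standard error 0.05, edgeR adjusted p = 4.01e-09), BIRC2, an inhibitor of apoptosis, at 0.79 (adjusted p = 2.84e-07), and DYNC2H1, a dynein of ciliary transport, at 0.61 (adjusted p = 0.000717). The lower ones were MMP7, BIRC3, a paralog of BIRC2, at -1.29 (adjusted p = 1.39e-09), and CEP126, a centrosomal protein, at -0.76 (adjusted p = 0.00362). TMEM123, the nearest tested neighbour of MMP7, had -0.03 (adjusted p = 0.723) on the log2 scale, CFAP300 -1.08 (adjusted p = 0.142) and DCUN1D5 -0.31 (adjusted p = 0.00205, below the fold threshold). In MCF10A-TRAM2 against control none of the 9 was called by edgeR, with 3 at an unadjusted p under 0.05, where 12.6% of all genes reached it.

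**Figure D3:**
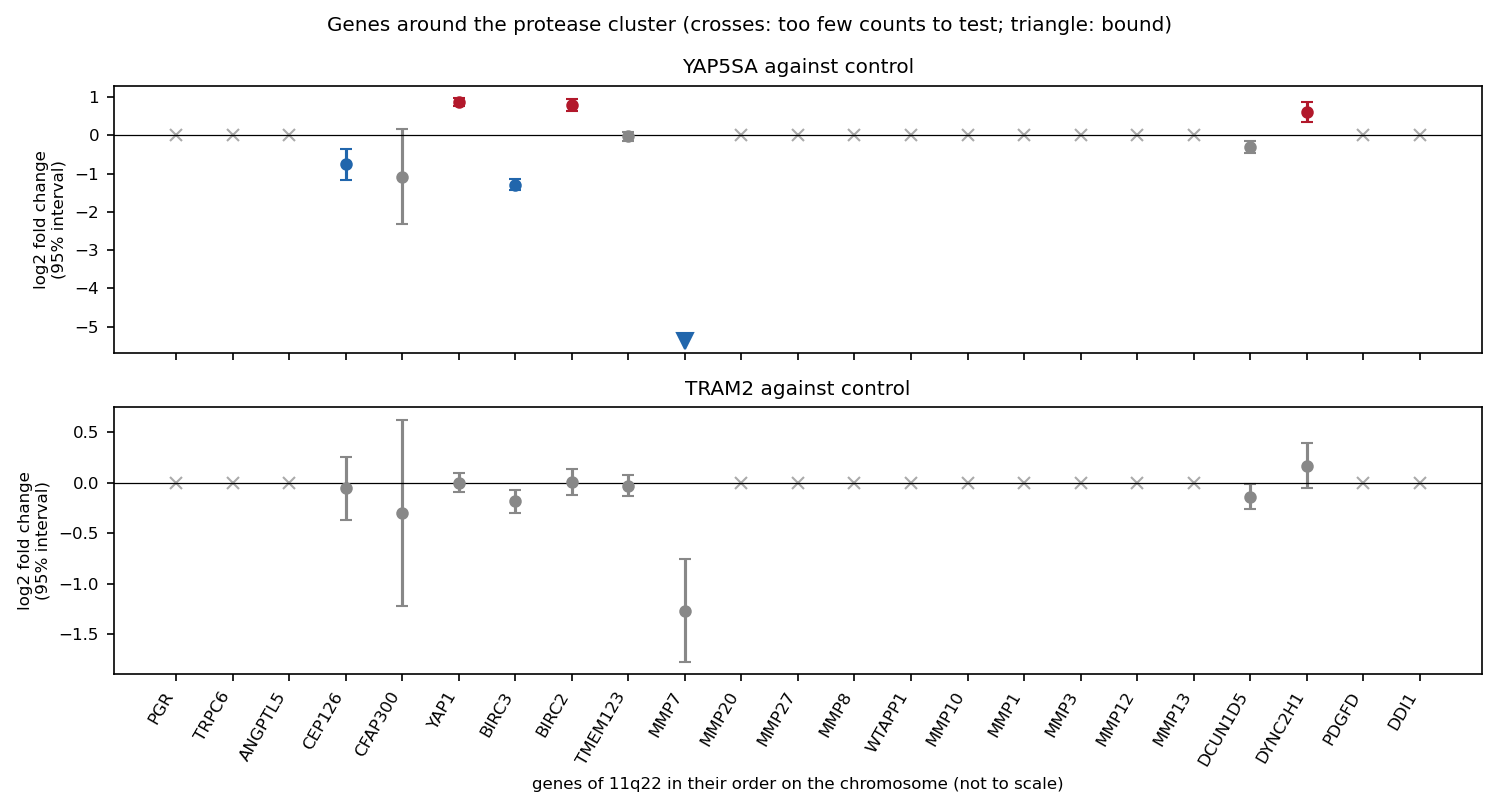
Log2 fold change (points) with its 95% interval (bars) of 23 genes of the chromosome 11 region, in their order on the chromosome and not to scale, for MCF10A-YAP5SA against control (top) and MCF10A-TRAM2 against control (bottom), coloured red where called higher, blue where lower and grey where not called, with crosses for genes not tested and a triangle for the bound of MMP7. BIRC3 (-1.29) and BIRC2 (0.79) are neighbours with opposite signs in MCF10A-YAP5SA, and TMEM123 between BIRC2 and MMP7 lies at -0.03.

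The other members of the 2 families were described in the same way. Of 18 listed (MMP8, MMP11, MMP12, MMP15 to MMP17, MMP19 to MMP21, MMP23A, MMP23B to MMP28, TIMP3 and TIMP4), 7 were tested. In MCF10A-YAP5SA against control 4 were called higher, 2 lower and 1 was not called, where 15.3% of all genes were called higher and 14.1% lower, and the median log2 fold change was 0.84 where that of all genes was -0.009. MMP24, a membrane-type protease known from the nervous system, stood at 9.32 and 7.42 CPM in MCF10A-YAP5SA and at 0.457 and 0.645 CPM in control (log2 fold change 3.92, standard error 0.31, edgeR adjusted p = 1.1e-07). MMP19, a protease of basement membrane proteins, stood at 11.2 and 10.1 CPM in MCF10A-YAP5SA and at 1.74 and 1.99 CPM in control (log2 fold change 2.51, standard error 0.24, adjusted p = 6.34e-07). The membrane-bound proteases MMP17 and MMP15 followed with 0.84 (adjusted p = 0.00345) and 0.96 (adjusted p = 0.0108). The call of MMP15 was lost without MCF10A-YAP5SA A (0.67, adjusted p = 0.15) and without control 1 (0.87, adjusted p = 0.0784). MMP28, epilysin, a protease of epithelia, was lower, at 0.756 and 0.618 CPM in MCF10A-YAP5SA and 12.5 and 12.5 CPM in control (log2 fold change -4.18, standard error 0.21, adjusted p = 7.46e-10). TIMP3, the inhibitor that binds to the matrix, stood at 77.2 and 71.1 CPM in MCF10A-YAP5SA and at 121 and 126 CPM in control (log2 fold change -0.73, standard error 0.08, adjusted p = 2.7e-06), opposite in sign to TIMP2. MMP16, a membrane-type protease, had 0.23 (95% interval -0.96 to 1.42, adjusted p = 0.767).

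None of these 7 was called by edgeR in MCF10A-TRAM2 against control, 1 (MMP19) had an unadjusted p under 0.05 (12.6% of all genes had), and the median log2 fold change was 0.07. MMP19 had levels of 2.53, 4.27, 3.14 and 2.77 CPM in MCF10A-TRAM2 A to D and 1.74 and 1.99 CPM in control, and these ranges did not overlap (log2 fold change 0.77, standard error 0.23, adjusted p = 0.176). It was called when no filter was used (adjusted p = 0.0459) and when the 10 libraries were kept apart (adjusted p = 0.0437). Between MCF10A-YAP5SA and MCF10A-TRAM2 the same 4 genes were higher and the same 2 lower, with MMP24 at 4.20, MMP19 at 1.74, MMP17 at 1.24, MMP15 at 0.76, MMP28 at -4.25 and TIMP3 at -0.79 on the log2 scale. MMP8, MMP12, MMP20, MMP23A, MMP26 and MMP27 had no count in any sample.

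Genes that activate or restrain these proteases formed a list of 30, of which 21 were tested. In MCF10A-YAP5SA against control 5 were called higher and 6 lower (15.3% and 14.1% of all genes), with a median log2 fold change of -0.22. The lower ones included proteases and convertases that can remove prodomains. ST14, matriptase, averaged 13.5 CPM in MCF10A-YAP5SA and 123 CPM in control (log2 fold change -3.19, edgeR adjusted p = 1.35e-11). KLK5, a kallikrein, averaged 1.04 and 236 CPM in the same groups (-7.81, adjusted p = 1.45e-07), and PCSK5, a proprotein convertase, 0.516 and 11.3 CPM (-4.42, adjusted p = 2.18e-09). The other convertases of the list, named after their values were seen, were split. FURIN stood at 44.3 and 41.7 CPM in MCF10A-YAP5SA and at 72.5 and 76.4 CPM in control. PCSK6 stood higher in MCF10A-YAP5SA, at 9.49 and 9.66 CPM, than in control, at 6.03 and 5.49 CPM. PLAT, the tissue plasminogen activator, was higher, at 39.5 CPM in MCF10A-YAP5SA and 1.39 CPM in control (4.83, adjusted p = 1.2e-10). RECK, a membrane-anchored inhibitor of MMP2, MMP9 and MMP14, was singled out after its values were seen. It stood at 14.6 and 15.2 CPM in MCF10A-YAP5SA, at 4.68, 7.10, 4.29 and 4.79 CPM in MCF10A-TRAM2 and at 4.48 and 4.95 CPM in control, with a log2 fold change of 1.66 in MCF10A-YAP5SA against control (standard error 0.19, adjusted p = 5.76e-06). None of the 21 was called by edgeR in MCF10A-TRAM2 against control, 7 had an unadjusted p under 0.05 (12.6% of all genes had), and CAV1, caveolin 1, an abundant gene of the list, had a log2 fold change of -0.11 with an adjusted p of 0.321.

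Transcription factors known to act on protease promoters, mostly of the AP-1 and ETS families, were 22, and all were tested. In MCF10A-YAP5SA against control 4 were called higher and 6 lower (15.3% and 14.1% of all genes), with a median of 0.00. FOS, an AP-1 subunit, stood at 1.18 and 1.08 CPM in MCF10A-YAP5SA, at 19.9, 25.6, 21.7 and 20.1 CPM in MCF10A-TRAM2 and at 19.3 and 18.3 CPM in control (log2 fold change -4.05 in MCF10A-YAP5SA against control, standard error 0.21, edgeR adjusted p = 8.11e-10). Other AP-1 genes, named after their values were seen, were split. JUNB stood at 27.0 and 25.7 CPM in MCF10A-YAP5SA and at 71.0 and 71.4 CPM in control. FOSL2 stood higher, at 180.5 and 177 CPM against 119 and 118 CPM in control. More alike in the 2 groups were FOSL1 (202 and 213 against 229 and 241 CPM) and JUN (97.2 and 100 against 89.6 and 88.1 CPM). ELF3, an epithelial ETS factor, averaged 1.93 CPM in MCF10A-YAP5SA and 46.6 CPM in control (-4.59, adjusted p = 2.4e-12), and CEBPB 35.3 and 169 CPM (-2.26, adjusted p = 2.45e-11). RUNX2, an activator of MMP13 in bone cells, averaged 34.7 CPM in MCF10A-YAP5SA and 2.55 CPM in control (3.77, adjusted p = 1.83e-11). MMP13 itself had too few counts to test, with 0 in MCF10A-YAP5SA and 3 in control. In MCF10A-TRAM2 against control none was called by edgeR and 5 had an unadjusted p under 0.05 (12.6% of all genes had), and FOSL1 and ETS1, the most abundant, had -0.18 (adjusted p = 0.243) and -0.08 (adjusted p = 0.614).

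Of 24 proteins known as substrates of these enzymes, 18 were tested, and in MCF10A-YAP5SA against control 7 were called higher and 5 lower (15.3% and 14.1% of all genes), with a median of 0.06. THBS1, thrombospondin 1, averaged 10296 CPM in MCF10A-YAP5SA and 2956 CPM in control (log2 fold change 1.80, edgeR adjusted p = 1.02e-11), and COL4A2, a chain of the type IV collagen that MMP2 degrades, 545 and 166 CPM (1.72, adjusted p = 2.05e-11). TNC, tenascin C, averaged 1.08 and 48.1 CPM (-5.46, adjusted p = 1.87e-11), and CDH1, the E-cadherin that MMP7 can shed, 97.3 and 382 CPM (-1.97, adjusted p = 2.16e-11). In MCF10A-TRAM2 against control none was called by edgeR, with 5 at an unadjusted p under 0.05 (12.6% of all genes). THBS1 had -0.30 there (adjusted p = 0.0316, below the fold threshold) and FN1, fibronectin, 0.56 (adjusted p = 0.47). In MCF10A-YAP5SA, FN1 stood at 15273 and 15291 CPM, against 360 and 354 CPM in control.

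Markers of cell types moved with the same groups. Of the 12 epithelial markers, 7 were called lower and 3 higher in MCF10A-YAP5SA against control, where 14.1% and 15.3% of all genes were. CLDN7 (-5.15) and CDH1 (-1.97 on the log2 scale) were among the lower ones, and the higher ones were KRT8 (0.96), KRT17 (0.73) and KRT18 (0.60). The sum of this list, near the control value, is therefore made of members that moved in opposite directions. The 10 fibroblast markers summed to 271 to 282 CPM in MCF10A-YAP5SA, to 91.8 to 105 CPM in MCF10A-TRAM2 and to 91.0 to 94.1 CPM in control, with THY1 at 0 in every sample and 1 of the 3 tested higher (POSTN, 3.32) and 1 lower (COL1A1, -2.09). The 10 leukocyte markers summed to 50.3 to 55.9, 48.3 to 58.8 and 50.6 to 51.4 CPM in the same groups. Most of this sum was CD68, a lysosomal protein, at 52.0 CPM in MCF10A-YAP5SA and 38.2 CPM in control (log2 fold change 0.44, not called), while the other tested markers were both lower, CSF1R at 0.680 CPM in MCF10A-YAP5SA and 10.3 CPM in control (-3.90) and CD14 at 0.158 and 2.09 CPM (-3.63), with CD3E, MPO and FCGR3B at 0 throughout. The 7 endothelial markers summed to 2.94 CPM in MCF10A-YAP5SA, to 12.0 to 17.5 CPM in MCF10A-TRAM2 and to 9.68 to 10.6 CPM in control, with VWF, ERG and CLDN5 at 0. Of the 3 tested, PECAM1 was lower, at 0.245 CPM in MCF10A-YAP5SA and 7.68 CPM in control (-4.95), TEK was higher, at 0.842 and 0.118 CPM (2.71), and KDR was not called (-0.33). The part of these differences in those of MMP2, MMP7 and TIMP2 was not tested.

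For TIMP2 and MMP2, the genes with the most similar pattern over the 8 samples were sought among 10849 tested genes with a mean of at least 5 CPM, by Pearson's r of log2 CPM, given as a description. For TIMP2 these were EXT1 (0.9994), a glycosyltransferase of heparan sulfate, NT5E (0.9991), the surface enzyme CD73, and CEMIP2 (0.9988), a transmembrane protein. EXT1 averaged 235 CPM in MCF10A-YAP5SA, 69.2 CPM in MCF10A-TRAM2 and 68.0 CPM in control. For MMP2 they were RAET1E (0.9989), a ligand of the receptor NKG2D, FERMT1 (0.9986), an integrin-binding kindlin of epithelia, and SMOC1 (0.9986), a secreted calcium-binding protein. SMOC1 averaged 0.320 CPM in MCF10A-YAP5SA, 25.8 CPM in MCF10A-TRAM2 and 23.6 CPM in control. The points share libraries, and in each of these genes MCF10A-YAP5SA lies apart from the other groups by its mean.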

How the data were processed

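Poly(A) RNA of the 10 libraries was sequenced by the authors. According to the submitters' notes and the methods of the study, adapters were removed with cutadapt and transcripts quantified with Salmon. The sources used here do not give versions, genome build or use of strand. The kit was TruSeq RNA per the labels and its stranded form per the study's methods. For every transcript of a library, the authors deposited an estimated count (expected reads, not always whole) and a TPM value (scaled by effective length), without pooling.

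The deposited estimated counts were summed per gene (226030 transcripts, 60168 genes) and rounded. Pairs of libraries within a group entered a chi-square test on genes averaging 50 or more counts with values within 0.001 of whole numbers. Genes kept by filterByExpr (15768) were scaled by TMM factors. The test was that of edgeR 4.0.16 (robust glmQLFit, then glmQLFTest, R 4.3.3), with 1 model for the 8 samples, no covariates, and Benjamini-Hochberg adjustment over all genes. TPM values were averaged as deposited. Standard errors were derived from the fold change and its F statistic. The study's own thresholds were used for a call. The steps were tested on simulated counts. Alternatives were RLE size factors, DESeq2 1.42.0, no filter, the 10 libraries apart, a replicate block, single runs, 2 groups only, protein-coding transcripts only and leaving out each sample.

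The members and lists, written from general knowledge, and the tests were chosen with earlier results of these data known. Named were all members, all tested family and chromosome 11 genes, and of each other list up to 4 called genes, by adjusted p, or without any call the 2 with the highest mean CPM, of which 1 is not reported here. Positions are from GENCODE on GRCh37 and promoters from RefSeq on GRCh38.p14.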

Additional observations from a re-analysis of the deposited data

Results flagged for a closer look

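In the groups of 4 samples, the highest or lowest value was compared with its nearest neighbour for 12 tested protease and inhibitor genes. MMP17 in MCF10A-TRAM2 C was set apart, at 2.78 CPM where the other 3 samples lay between 2.231 and 2.274 CPM, a gap of 0.921 of the range of the group, above Dixon's 95% critical value for 4 samples. Chance alone sets apart about 1 in 20 such groups.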

How the results depend on the processing

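In MCF10A-YAP5SA against control and against MCF10A-TRAM2, the count of called members stayed at 3 in every alternative, and all genes called ranged from 4211 to 4735 and from 4184 to 4758 when 1 sample was left out. In MCF10A-TRAM2 against control the counts moved. All genes called were 9 in the reported fit (5 higher and 4 lower), 28 with DESeq2 (24 and 4), 136 with no filter (89 and 47), 67 with 10 libraries (55 and 12), 25 in the first run, 97 in the second run (an alternative chosen after seeing the data), 4 with protein-coding transcripts only, and 3 to 39 when 1 sample was left out. With the replicate block, all genes called were 69 (55 and 14) and 1 member was called. Called members were 0 in the reported fit and 1 with no filter, with 10 libraries, in the second run (MMP7 in each, as with the block) and in the first run (TIMP1), and 0 to 1 when 1 sample was left out. The letters A to D also mark the run, and no further pairing was seen, as deviations of same-lettered libraries correlated between -0.0259 and 0.0345. MMP15 in MCF10A-YAP5SA against MCF10A-TRAM2 lost its call with DESeq2 (adjusted p = 0.0554), in the first run (0.0528) and without MCF10A-YAP5SA A (0.275). DESeq2 gave no adjusted p for MMP7 in MCF10A-TRAM2 against control. Over the 12 tested protease and inhibitor genes, the only genes recomputed one by one, 571 values kept their side of the threshold, 9 gained and 5 lost a call, and none reversed. Beyond the alternatives' own construction, the cause was not tested. Depth limits MMP1, MMP3, MMP9, MMP10 and MMP13, and the size of the fall in MMP7.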
